A study of Mus musculus with 47 samples.

Results

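The genes described here are mouse Apoe, which encodes apolipoprotein E, and the 7 genes named with it at its locus: Apoc1, Apoc2, Apoc4, Tomm40, Nectin2, Bcam and Clptm1. They were taken by gene name, which gave 8 of the 53697 genes in the deposited table. The study cultured primary forebrain microglia, the resident macrophages of the brain, in serum-containing medium and sequenced polyA RNA from 47 libraries. The question was how APOE genotype alters these cells at rest and after they are fed myelin, the lipid-rich sheath of axons. There were 5 genotypes, each untreated or given myelin for 3 h, and every culture was collected at 24 h. Wild-type cells (WT) carried 2 intact mouse Apoe alleles, and came from C57BL/6 mice of the Jackson Laboratory. Apoe+/- cells (Het) and Apoe-/- cells (KO) carried 1 and 2 disrupted Apoe alleles, and both came from a single other Jackson line. E3 and E4 cells, from 2 Taconic lines, carried human APOE ε3 or APOE ε4 in place of both mouse alleles. All lines are labelled C57BL/6, and the age of the mice is not given in the sources used here. Each group had 5 libraries, except E3 untreated, E3 after myelin and Het after myelin, which had 4. Whether replicates are separate animals or separate cultures is not labelled, so each p-value reflects only library-to-library spread, which may be technical. Genotype, source colony and the chromosome segment linked to each engineered allele cannot be told apart when WT, E3 or E4 is compared with another line. KO and Het share a line, but the segment beside the disrupted allele travels with it, so allele and linked segment cannot be told apart there either.

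Apolipoprotein E coats lipoprotein particles and delivers cholesterol and phospholipid to cells through lipoprotein receptors on their surface. In the brain it is made mainly by astrocytes and by activated microglia, and the ε4 form is the best known genetic risk factor for late-onset Alzheimer's disease. The genes for the small apolipoproteins C1, C2 and C4 lie beside it, and macrophages are known to switch on this cluster through liver X receptors (LXR), nuclear receptors that sense oxidised cholesterol. Tomm40, Nectin2, Bcam and Clptm1 are neighbours by position and encode proteins of other classes.

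The level of a gene is given as scaled TPM, which is the deposited TPM, a measure of transcript abundance corrected for transcript length, rescaled to the nuclear protein-coding RNA of each library and then by a trimmed-mean factor. Because it is per length, levels of different genes can be compared. Protein-coding genes held 0.468% to 27.3% of the TPM in a library, and 1 other row, Gm23935, held 69.4% to 99.0%. The 4 libraries with under 6% coding content were all Het (untreated replicates 3 and 5, myelin replicates 1 and 2), so Het values are also given without them. Sequencing depth is not given in a TPM table, so no counting error is attached to any value. The 10 microglial markers, of which Tyrobp had the highest mean in every group, summed in untreated cells to 12081 to 14161 scaled TPM in WT, 4018 to 21682 in Het, 17700 to 20579 in KO, 11520 to 13614 in E3 and 12884 to 15972 in E4. Between untreated KO and WT, 5 of these markers were higher and 3 lower. Markers of other cells moved with genotype. In untreated cells the 9 astrocyte markers summed to 109 to 130 in WT, 32.5 to 61.7 in Het, 66.3 to 97.6 in KO, 714 to 869 in E3 and 1397 to 2427 in E4. The 7 fibroblast and pericyte markers summed to 713 to 1097 in WT, 27.5 to 80.0 in Het, 31.8 to 656 in KO, 354 to 525 in E3 and 109 to 193 in E4. No microglial, astrocyte, fibroblast or pericyte marker was at 0 in every library of any group. In bulk RNA, fewer cells of a type and less RNA per cell cannot be told apart.

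All 8 genes lie on the minus strand of mouse chromosome 7 (build mm10, GENCODE M21). In order of coordinate they are Clptm1 (chr7:19631571-19665033), Apoc2 (chr7:19671579-19677941), Apoc4 (chr7:19678083-19681479), Apoc1 (chr7:19689481-19692660), Apoe (chr7:19696109-19699188), Tomm40 (chr7:19701313-19715438), Nectin2 (chr7:19716644-19750483) and Bcam (chr7:19756131-19771016). A further annotated coding gene on the same strand, Gm44805, overlaps both Apoc2 and Apoc4, and Gm20512 on the opposite strand overlaps Tomm40 and Nectin2, so reads from overlapping exons may be shared between these genes. RefSeq promoter sequence (GRCm38.p6) was matched for 7 of the 8 genes. The 4 printed here are upstream of 4 genes whose levels differed between genotypes, written 5′ to 3′ on the gene's own minus strand. Bases annotated as untranslated region were left out, other exon bases were not looked for, and matches to the motifs searched are in capitals. The 4 stretches are the 250 bases before the first Apoe start (chr7:19699189-19699438), 141 bases before Apoc2 (chr7:19677942-19678082), 241 bases before Tomm40 (chr7:19715439-19715679) and 250 bases before the RefSeq start of Nectin2 (chr7:19749574-19749823). The Nectin2 stretch lies within the Nectin2 gene as GENCODE annotates it.
Apoe: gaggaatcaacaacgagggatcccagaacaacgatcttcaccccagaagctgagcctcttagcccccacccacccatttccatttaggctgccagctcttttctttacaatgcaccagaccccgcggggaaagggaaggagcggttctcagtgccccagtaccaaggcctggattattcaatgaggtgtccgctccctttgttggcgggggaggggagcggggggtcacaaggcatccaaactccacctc
Apoc2: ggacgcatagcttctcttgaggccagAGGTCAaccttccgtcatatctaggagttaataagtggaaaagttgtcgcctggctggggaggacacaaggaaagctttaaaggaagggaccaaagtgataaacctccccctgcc
Tomm40: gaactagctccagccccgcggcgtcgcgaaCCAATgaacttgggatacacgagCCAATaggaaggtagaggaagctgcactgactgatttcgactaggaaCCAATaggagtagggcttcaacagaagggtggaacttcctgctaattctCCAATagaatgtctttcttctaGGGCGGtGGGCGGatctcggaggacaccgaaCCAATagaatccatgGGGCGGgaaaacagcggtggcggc
Nectin2: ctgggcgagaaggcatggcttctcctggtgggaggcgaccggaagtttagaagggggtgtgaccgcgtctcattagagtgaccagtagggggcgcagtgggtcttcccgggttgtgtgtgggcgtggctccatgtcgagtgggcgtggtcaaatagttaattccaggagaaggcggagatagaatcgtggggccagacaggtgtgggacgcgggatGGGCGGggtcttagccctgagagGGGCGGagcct
The motifs searched on both strands were the Sp1 box GGGCGG, the TATA box TATAAA, the CCAAT box CCAAT, the PU.1 site GAGGAAGT, the nuclear receptor half-site AGGTCA, which LXR also uses, and the AP-1 site TGANTCA. The Tomm40 window held 5 matches to CCAAT and 3 to GGGCGG, the Nectin2 window held 2 to GGGCGG, and the Apoc2 window held 1 to AGGTCA. Among 32851 mouse promoter windows, 33.8% held CCAAT, 32.7% GGGCGG and 14% AGGTCA, while TATAAA was in 12.4%, TGANTCA in 6.75% and GAGGAAGT in 2.44%. None of these letters were found in the window before the first Apoe start. Windows before 2 later Apoe starts, not printed here, were also searched. That at chr7:19698622-19698871 held 2 matches to TATAAA, on opposite strands, and that at chr7:19698399-19698648 held none. GC content was 57.2% in the Apoe window and 62% in that of Nectin2, against a median of 52.4% over all windows.

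Mouse Apoe was the most abundant of the 27326 coding and long non-coding genes in untreated WT microglia and was far lower in KO, E3 and E4. In untreated WT its level was 57837, 64964, 61321, 46151 and 58804 scaled TPM, which is 4.62% to 6.5% of the scaled total. Untreated Het libraries had 49910, 56622, 62763, 44826 and 7922. The last of these had 0.468% coding RNA, and the others overlapped the WT range. Untreated KO libraries had 85.7, 69.3, 70.3, 74.5 and 79.7, untreated E3 libraries 87.9, 114, 109 and 106, and untreated E4 libraries 143, 138, 157, 193 and 225. These 3 groups did not overlap one another or WT, in rising order KO, E3, E4, and no library labelled KO, E3 or E4 had a WT-like level. The mean level was 762-fold lower in KO, 555-fold lower in E3 and 337-fold lower in E4 than in WT. The log2 differences from WT in the limma fit were -9.61 ± 0.16 (SE) for KO, -9.13 ± 0.17 for E3 and -8.47 ± 0.16 for E4, each the largest of the 10887 genes tested in its comparison. The E3 and E4 values are not levels of human APOE, because a human transcript may or may not be assigned to the mouse gene, and which transcripts gave them was not tested. E4 exceeded E3 by 0.66 ± 0.17 (limma, adjusted p = 0.00328; 0.00283 to 0.369 over 6 alternative settings, lost without library weights).

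With 1 disrupted allele, Apoe in Het was not called different from WT untreated and was called lower after myelin. The Het difference from WT was -0.25 ± 0.22 untreated (limma, adjusted p = 0.324) and -0.55 ± 0.21 after myelin (adjusted p = 0.0183; 0.00518 to 0.191 over the alternatives). The difference after myelin was -1.17 without library weights and -1.27 without Het myelin replicate 3. It was not called without WT myelin replicate 1 or Het myelin replicate 2 (largest adjusted p 0.139). After myelin, the Het libraries had 27569, 11921, 51632 and 58578 scaled TPM, against 58817 to 87634 in WT. The first and second of these were of low coding content, and the other two lay just below the WT range. Without the low-coding libraries the Het mean was 50453 ± 5917 (SD, n = 3) untreated and 55105 ± 4911 (SD, n = 2) after myelin.

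**Figure D1:**
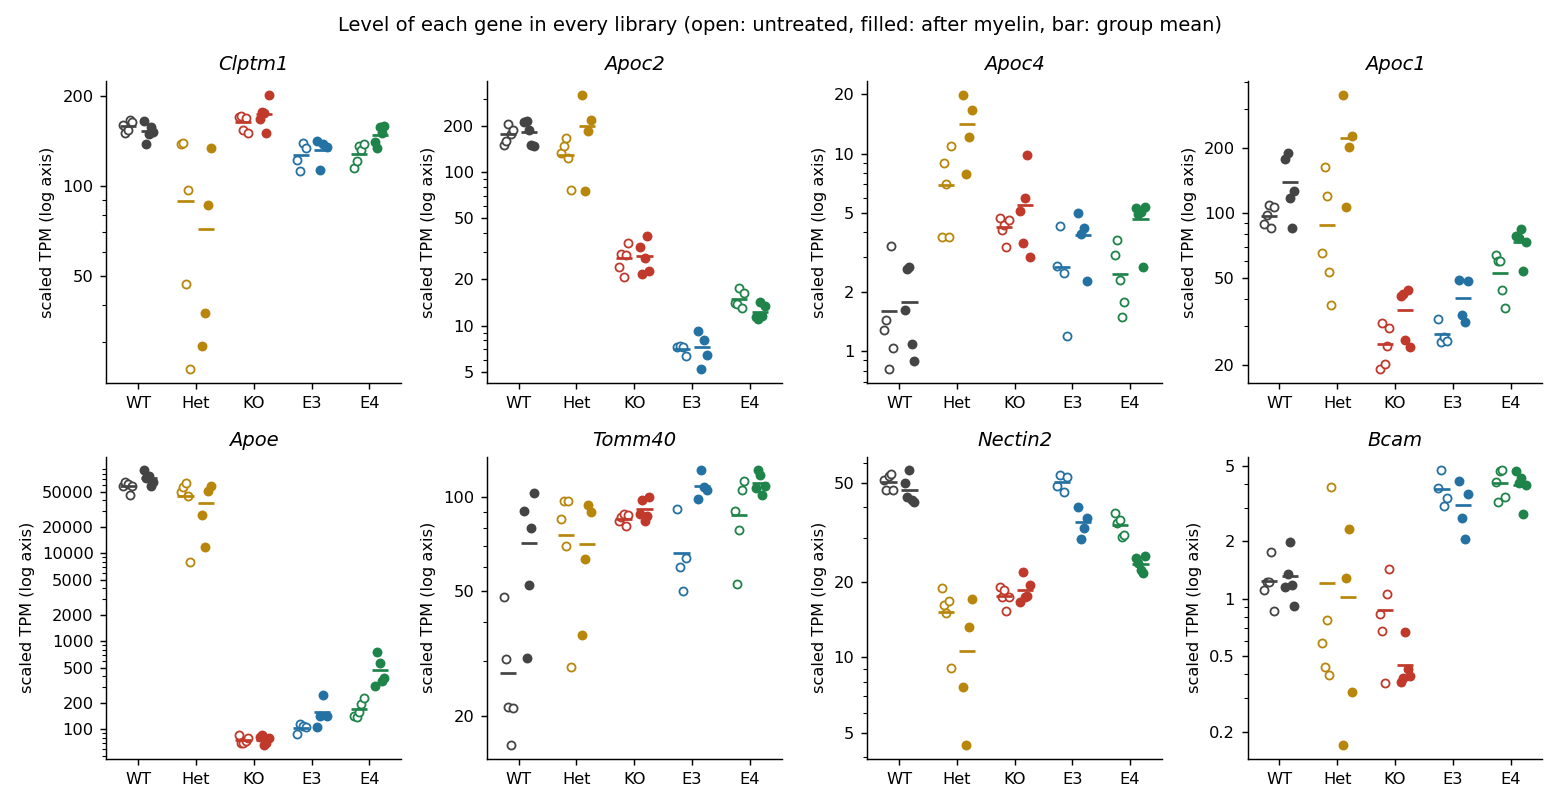
Level of each of the 8 genes in every library, in scaled TPM on a log axis that differs by panel, with genotypes along the x axis, open points untreated, filled points after myelin and bars at group means. Apoe was 46151 or more in WT and 754 or less in KO, E3 and E4, and Apoc2 formed separate bands in WT, KO, E4 and E3.

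Apoc2, the cofactor that activates lipoprotein lipase, was the neighbour that fell furthest where mouse Apoe was disrupted or replaced. Untreated WT libraries had 149, 159, 207, 177 and 189 scaled TPM, and untreated Het libraries 133, 148, 167, 124 and 76.6. Untreated KO libraries had 24.0, 29.4, 20.8, 28.8 and 34.6. Untreated E4 libraries had 14.1, 13.9, 17.5, 13.1 and 16.2, and untreated E3 libraries 7.23, 7.37, 7.26 and 6.33. WT, KO, E4 and E3 formed 4 bands with no overlap, in falling order. Het overlapped WT only through replicate 3, at 167, a library of low coding content. Without the low-coding libraries the untreated Het mean was 135 ± 12.5 (SD, n = 3), and each of these libraries lay below every WT library. The limma difference of untreated Het from WT was -0.39 (adjusted p = 0.0515), called on leaving out any of 4 libraries. The mean was 25.0-fold lower in E3, 11.8-fold lower in E4 and 6.4-fold lower in KO than in WT. In the limma fit these were -4.48 ± 0.13 on the log2 scale (adjusted p = 7.8e-29), -3.42 ± 0.13 (1.46e-25) and -2.71 ± 0.13 (5.77e-22), with the E3 value sixth in size of 10887 genes.

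The Apoc2 difference was also present between KO and Het, which share a line. It was -2.32 ± 0.18 untreated (limma, adjusted p = 1.88e-13) and -2.68 ± 0.15 after myelin (1.15e-17), and ranked eighth in size of 10887 genes in both. The 2 human-APOE lines differed from each other and from KO. E4 exceeded E3 by 1.06 ± 0.14 on the log2 scale untreated (adjusted p = 1.22e-07), and E3 and E4 lay below KO by -1.77 ± 0.14 and -0.71 ± 0.13, in a comparison with KO added after the data were seen. All of these untreated Apoc2 differences passed the threshold under each of the 6 alternative settings. The difference between E4 and E3 after myelin, 0.83 ± 0.13, did so in 5 (adjusted p from 1.81e-06 to 0.0674). Astrocyte markers were higher in E4 than in E3, as Apoc2 was, but both lines exceeded KO in these markers and lay below it in Apoc2. The part of these markers in the result was not tested.

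Gm44805, the annotated gene overlapping Apoc2 and Apoc4, was low and was listed at 0 in most libraries outside WT and Het. It reached 0.804 to 2.18 scaled TPM in untreated WT, was listed at 0 in 4 of 5 untreated KO libraries, and was listed at 0 in all 9 E3 and E4 libraries of the untreated arm and all 9 after myelin. Whether its exons and those of Apoc2 were counted from the same reads cannot be read from the table.

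Apoc1, an exchangeable apolipoprotein that inhibits lipid transfer and lipase enzymes, fell in KO, E3 and E4, but by less and in a different order. Untreated WT libraries had 88.7, 97.5, 109, 84.9 and 106 scaled TPM. Untreated KO libraries had 19.0, 31.2, 20.1, 24.3 and 29.5, and untreated E3 libraries 32.5, 25.4, 26.9 and 25.7. Untreated E4 libraries had 63.7, 60.1, 59.9, 44.2 and 36.6, above both KO and E3 and below WT with no overlap, while KO and E3 overlapped each other. The limma differences from WT were -2.01 ± 0.17 in KO (adjusted p = 8.53e-14), -1.83 ± 0.18 in E3 (1.4e-11) and -0.88 ± 0.18 in E4 (2.78e-05), each called under all 6 alternative settings. E3 and KO differed by 0.18 ± 0.18 (adjusted p = 0.376), which does not show that they were alike. E4 exceeded E3 by 0.95 ± 0.19 (adjusted p = 0.000137; 4.16e-05 to 0.0592 over the alternatives, lost without library weights). KO lay below Het by -1.61 ± 0.24 (adjusted p = 4.29e-06), from Het libraries that ranged from 37.5 to 163. It was called under all 6 alternatives (at most 0.00025) but was lost when Het untreated replicate 1 was left out of the weighted fit (adjusted p = 0.325). Astrocyte markers were also higher in E4 than in E3, and their part in the Apoc1 difference was not tested.

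The balance between these neighbours changed most where human APOE replaced the mouse gene. The ratio of the Apoc2 level to the Apoc1 level, a unitless ratio of scaled TPM, was 1.81 ± 0.184 (SD, n = 5) in untreated WT and 1.75 ± 0.574 (SD, n = 5) in Het. It was 1.12 ± 0.129 (SD, n = 5) in KO, 0.257 ± 0.0293 (SD, n = 4) in E3 and 0.297 ± 0.088 (SD, n = 5) in E4. E3 lay below KO with no overlap (log2 difference of the ratio -1.98, two-sided exact permutation p = 0.0159, adjusted 0.0278 over 21 comparisons). E4 and E3 overlapped (log2 difference 0.09, exact permutation p = 0.73). After myelin the ratio was 1.37 in WT, 0.874 in Het, 0.828 in KO, 0.182 in E3 and 0.171 in E4. In WT the fall with myelin, -0.42 on the log2 scale, had an exact permutation p of 0.0317 and an adjusted p of 0.0476, and that in KO, -0.45, had the same p-values, although both pairs of groups overlapped. In E4 the fall was -0.74 with no overlap (exact permutation p = 0.00794, adjusted 0.0238). The differences in E3, -0.52 (adjusted exact permutation p = 0.106), and in Het, -0.92 (0.0889), did not pass.

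**Figure D2:**
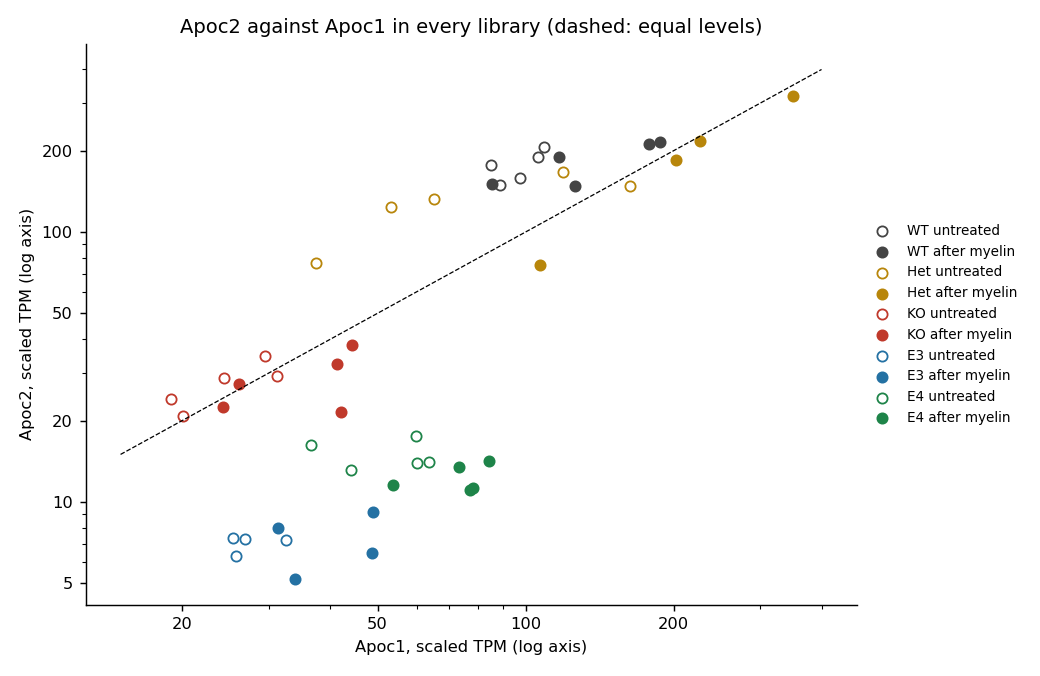
Apoc2 level against Apoc1 level in each of the 47 libraries, both in scaled TPM on log axes, coloured by genotype, open untreated and filled after myelin, with equal levels on the dashed line. E3 and E4 libraries sit below the line with Apoc2 at 17.5 or less, untreated WT libraries sit above it, and KO libraries lie near it.

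Apoc4, the least studied of the apolipoprotein C genes, was near the limit of these libraries. Untreated WT libraries had 1.28, 1.45, 0.81, 3.42 and 1.04 scaled TPM, and untreated KO libraries 4.73, 4.1, 4.37, 3.38 and 4.64. KO and WT overlapped by 1 WT library, and the limma difference was 1.15 ± 0.22 (adjusted p = 1.21e-05). Het was highest, at 3.78 to 11 untreated and 7.89 to 19.9 after myelin, above every WT library in both arms. Its difference from WT was 1.26 ± 0.30 untreated (adjusted p = 0.000363) and 2.43 ± 0.28 after myelin (4.82e-10), and the untreated call was lost without Het untreated replicate 1 (adjusted p = 0.186). In KO relative to WT, Apoc4 thus differed in the direction opposite to Apoc1 and Apoc2. E4 differed from WT by 0.51 ± 0.22 untreated (adjusted p = 0.0388; 0.0165 to 0.19 over the alternatives, lost without any of 7 libraries) and by 1.24 ± 0.25 after myelin (3.89e-05). E3 differed by 0.49 ± 0.23 untreated (0.0595), and by 0.64 ± 0.26 after myelin (0.0442), a call lost with a pseudocount of 5 (0.0945, from 0.0198) and without any of 5 libraries.

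Tomm40, the channel through which proteins enter mitochondria, was lower in untreated WT than in every other group. Untreated WT libraries had 47.9, 30.5, 21.3, 16.1 and 21.1 scaled TPM. Untreated KO libraries had 84.3, 86.6, 88.3, 80.8 and 87.6, and untreated E3 libraries 91.9, 60.0, 50.2 and 63.9. Untreated E4 libraries had 90.3, 52.8, 78.8, 106 and 113, and Het 85.2, 97.7, 69.8, 97.3 and 28.7. No KO, E3 or E4 library overlapped WT, and the only Het library within the WT range was the one with 0.468% coding RNA. The limma differences from WT were 1.73 ± 0.17 in KO, 1.78 ± 0.24 in Het, 1.31 ± 0.18 in E3 and 1.63 ± 0.18 in E4 (adjusted p = 9.29e-12, 1.98e-08, 5.9e-08 and 8.93e-11 in that order). KO and Het differed by -0.06 ± 0.24 (adjusted p = 0.889). The Het call was lost without Het untreated replicate 1 (adjusted p = 0.0588).

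Nectin2, an adhesion molecule at cell junctions that is also a ligand for immune receptors, separated the lines without following Apoe. Untreated WT libraries had 51.4, 46.7, 53.3, 54.1 and 46.7 scaled TPM, and untreated E3 libraries 48.6, 53.6, 46.1 and 52.6. Untreated E4 libraries had 38.0, 34.4, 35.4, 30.3 and 31.0, untreated KO libraries 19.1, 17.4, 18.6, 15.3 and 17.5, and untreated Het libraries 18.9, 16.2, 15, 16.9 and 9.06. WT and E3 overlapped, E4 lay below both, and KO and Het lay together below E4. KO and Het each differed from WT by similar amounts in the limma fit, -1.43 ± 0.08 (adjusted p = 4.32e-19) and -1.44 ± 0.11 (2.17e-14). KO and Het differed by 0.01 ± 0.11 (adjusted p = 0.968). After myelin KO exceeded Het by 0.48 ± 0.10 (4.75e-05; 3.87e-06 to 0.0608 over the alternatives, lost without weights and the low-coding Het libraries), and by 0.98 without Het myelin replicate 3. E4 lay below E3 by -0.56 ± 0.09 untreated (adjusted p = 5.89e-06) and by -0.56 ± 0.08 after myelin (1.6e-06). Both were lost without library weights (adjusted p = 0.0703 and 0.11, the largest of the alternatives; the smallest were 1.41e-06 and 8.02e-07).

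Fibroblast and pericyte markers, whose cells also express nectins, were highest in WT and low in KO and Het, as Nectin2 was. In replicate order the untreated KO sums were 53.0, 44.3, 71.6, 31.8 and 656, beside Nectin2 levels of 19.1, 17.4, 18.6, 15.3 and 17.5. After myelin the KO sums were 45.9, 136, 61.0, 34.7 and 66.7, beside Nectin2 levels of 16.6, 21.9, 17.4, 17.7 and 19.5. Untreated E3 had sums of 354 to 525 against 713 to 1097 in WT at overlapping Nectin2 levels. The part of these markers in the Nectin2 differences was not tested.

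Bcam, a laminin receptor of epithelial and vascular cells, stayed under the filter, which asked for 5 scaled TPM in 4 libraries, so 7 of the 8 genes were tested. Its level was 0.864 to 1.76 in untreated WT, 0.361 to 1.43 in KO, 3.05 to 4.71 in E3 and 3.23 to 4.71 in E4. The E3 and E4 libraries lay above all WT and KO libraries in both arms. In the fit without a filter the differences of E3 and E4 from WT were 1.08 ± 0.15 and 1.20 ± 0.14 untreated (limma, adjusted p = 2.38e-07 and 4.78e-09), where 31.1% and 36% of 27099 genes were called. Clptm1, a transmembrane protein first described at a cleft lip and palate breakpoint, was the steadiest of the genes outside Het. It ranged from 112 to 202 scaled TPM over the WT, KO, E3 and E4 libraries of both arms. It was lower in E3 than in WT by -0.30 ± 0.10 (adjusted p = 0.0125) and in E4 by -0.26 ± 0.10 (0.0219), which neither the fit without library weights (0.426 and 0.399, from 0.00639 and 0.00522 over the alternatives) nor the coding total alone called. Leaving out E3 untreated replicate 2 ended the first call (0.0581), and leaving out WT untreated replicate 5 or E4 untreated replicate 2 the second (up to 0.0666). In Het it fell to 24.3 to 47 in the 4 libraries of low coding content, against 86.5 to 139 in the other 5. The limma difference of Het from WT was -0.4 untreated (adjusted p = 0.0121, lost without Het untreated replicate 1) and -0.88 after myelin (1.21e-07). KO exceeded Het by 0.44 untreated (0.0234, lost without Het untreated replicate 1 or 3) and by 1.02 after myelin (1.28e-09).

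Most of the genes tested were called between each other genotype and WT when untreated, and the counts of cluster genes are to be read against that. Of the 7 genes tested, 5 were called between untreated E3 and WT (1 higher and 4 lower), where 61.8% of all 10887 genes were called (28.2% higher, 33.6% lower). The count was 7 between E4 and WT (2 higher, 5 lower), where 66.6% of all genes were called (30.3% higher, 36.4% lower). It was 6 between KO and WT (2 higher, 4 lower), where 61.9% were called (29.2% higher, 32.7% lower), and 4 between Het and WT (2 higher, 2 lower), where 57.1% were called (23.2% higher, 33.8% lower). After myelin it was 6 for E3 (39.1%), 6 for E4 (56.1%), 5 for KO (52.6%) and 5 for Het (65.8%). These 8 comparisons share the WT libraries of their arm. With most of the genes tested called in 7 of these 8 comparisons, and only 7 genes counted, the counts themselves single out nothing. KO and Het, of one line, gave 4 calls (1 higher, 3 lower) where 16.4% of all genes were called (12% higher, 4.34% lower), and 6 after myelin, where 63.1% were. With the coding total alone, the split over all genes between untreated KO and Het went from 1310 higher and 472 lower to 2558 and 374, and that between untreated E3 and WT from 3070 and 3663 to 3578 and 3035. E4 and E3 gave 4 calls (3 higher, 1 lower) against 26.4% of all genes (13.6% higher, 12.8% lower), and 5 after myelin against 26.6%. Against KO, 6 genes were called in untreated E3 (70.7% of all genes) and 6 in untreated E4 (66%), with 5 and 4 after myelin (63.2% and 59.7%).

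**Figure D3:**
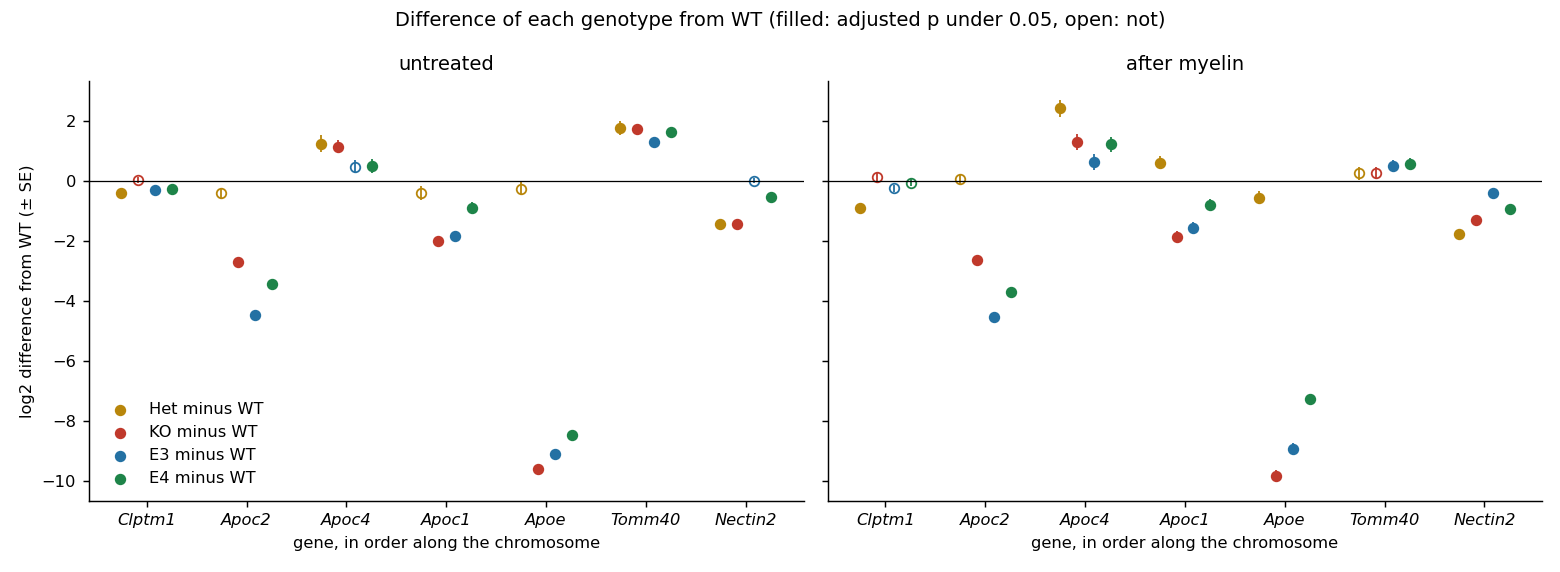
Log2 difference (± SE) of Het, KO, E3 and E4 from WT for the 7 tested genes, in order along the chromosome, untreated at left and after myelin at right, with filled points past the adjusted p threshold of 0.05. Apoe and Apoc2 fell in KO, E3 and E4, Nectin2 fell in Het and KO in both panels, and Tomm40 was higher in all 4 lines when untreated.

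Myelin raised the residual Apoe signal in E4. The E4 libraries went from 138 to 225 scaled TPM untreated to 315, 754, 571, 356 and 380, with no overlap. The response was 1.47 ± 0.16 on the log2 scale (limma, adjusted p = 5.55e-09), fifteenth in size of 10887 genes and called under each of the 6 alternative settings (largest adjusted p 0.0275). KO, at 66.3 to 86.4 after myelin, gave 0.04 ± 0.17 (adjusted p = 0.918). WT gave 0.29 ± 0.18 (0.433; 0.07 without WT myelin replicate 1, and 0.47 with a call at 0.0474 without replicate 4), Het -0.01 ± 0.24 (0.986) and E3 0.47 ± 0.17 (0.0552; called on leaving out E3 myelin replicate 1 or 2, smallest 0.0378). The E4 response exceeded that of WT by 1.18 ± 0.24 (adjusted p = 0.00154), a call lost without library weights (0.609, the largest of the alternatives). It exceeded that of E3 by 1.0 ± 0.24 (adjusted p = 0.0495), which held under only 1 of the 6 alternatives (0.0482 to 1.0) and was lost on leaving out any of 10 libraries. Astrocyte markers summed to 1397 to 2427 in untreated E4 and to 1120 to 2386 after myelin. In replicate order the untreated sums were 1433, 1397, 1843, 2427 and 1913, beside Apoe levels of 143, 138, 157, 193 and 225. After myelin the sums were 1505, 1120, 1728, 2043 and 2386, beside Apoe levels of 315, 754, 571, 356 and 380. The part of these markers in the Apoe response was not tested.

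Tomm40 responded to myelin in WT, the genotype where it was low at rest. The WT libraries after myelin had 90.5, 30.7, 52.4, 79.8 and 103 scaled TPM, 4 of 5 above every untreated WT library. The response was 1.54 ± 0.20 (limma, adjusted p = 5.31e-07; at most 0.00841 under the 6 alternatives). KO, already at 80.8 to 88.3 untreated, was at 84.3 to 100.0 after myelin and gave 0.08 ± 0.18 (adjusted p = 0.842). The responses of KO and E4 were smaller than that of WT by -1.45 ± 0.27 (adjusted p = 0.000348; 0.000369 to 0.221 over the alternatives) and -1.06 ± 0.27 (0.00896; 0.0115 to 0.543). The response was 0.74 ± 0.19 in E3 (0.00616; 0.00526 to 0.415) and 0.48 ± 0.17 in E4 (0.0398; 0.0345 to 0.633). The E3 call was lost without E3 myelin replicate 4 and the E4 call without any of 5 libraries. After myelin the WT range took in every Het and KO library, while E3 and E4 still exceeded WT by 0.51 ± 0.21 (0.0461; 0.016 to 0.0926) and 0.58 ± 0.20 (0.0118; 0.00444 to 0.0325). The E3 difference was lost without any of 6 libraries, and the E4 difference without WT myelin replicate 2 (0.056).

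Nectin2 fell with myelin in E3, E4 and Het. The E3 libraries after myelin had 40.0, 29.9, 33.1 and 36.2 scaled TPM and the E4 libraries 25.0, 23.9, 22.5, 21.8 and 25.4, below every untreated library of the same line. The log2 changes were -0.49 ± 0.09 in E3 (limma, adjusted p = 0.000321) and -0.49 ± 0.08 in E4 (2.3e-05), each lost only without library weights (0.353 and 0.171). Het libraries went from 9.06 to 18.9 untreated to 4.45 to 17.1, which overlap, and the change was -0.42 ± 0.12 (0.0143). That call held under 2 of the 6 alternatives (0.0158 to 0.999) and was lost without Het untreated replicate 1 or 2 or Het myelin replicate 2. The differences in WT, -0.09 ± 0.10 (0.69), and in KO, 0.05 ± 0.09 (0.781), were not called. The differences of the E3 and E4 responses from that of WT were both -0.40 ± 0.13 (adjusted p = 0.0474 and 0.0393). They were called under 1 and 2 of the 6 alternatives (up to 0.778 and 0.743) and lost on leaving out any of 11 and 10 libraries. Fibroblast and pericyte markers also went from 354 to 525 down to 192 to 335 in E3 and from 109 to 193 to 113 to 141 in E4, and their part in the Nectin2 change was not tested.

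The fitted Apoc1 response was above 0 in each genotype, but the calls depended on the setting and on single libraries. It was 0.69 ± 0.19 in E3, 0.52 ± 0.17 in E4, 0.58 ± 0.18 in KO and 1.45 ± 0.25 in Het (limma, adjusted p = 0.00913, 0.0257, 0.0472 and 0.000104) and 0.43 ± 0.20 in WT (0.217). Without WT myelin replicate 4 the WT response was 0.74 and called (0.00224), and without WT myelin replicate 1 it was 0.03. E3, E4 and Het were called under 3 of the 6 alternatives and KO under 1, with adjusted p of 0.00974 to 0.595, 0.0273 to 0.477, 0.000385 to 0.999 and 0.0359 to 1.0 in that order. The Het call was lost without Het untreated replicate 1 or Het myelin replicate 3, the E3 call without E3 myelin replicate 4. The E4 call was lost without E4 untreated replicate 4 or 5 or E4 myelin replicate 3. The KO call was lost without KO untreated replicate 1 or 3 or KO myelin replicate 1, 2 or 4. Apoc2 was not called in any genotype, with responses from -0.27 ± 0.13 in E4 (adjusted p = 0.13; 0.0365 to 0.697 over the alternatives, called with the coding total alone) to 0.48 ± 0.19 in Het (0.0691). Apoc4 rose in E4 by 0.82 ± 0.22 (0.00503) and in Het by 1.27 ± 0.32 (0.00504). The E4 call held under 4 of the 6 alternatives (0.00476 to 0.207). The Het call held under 2 (0.00322 to 0.999) and was lost on leaving out Het untreated replicate 1 or Het myelin replicate 3 or 4.

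Counted over the 7 tested genes, myelin gave 1 call in WT, where 9.75% of all genes were called, and 1 in KO, where 5.41% were. E3 had 3 calls (17.5% of all genes), Het 4 (18.6%) and E4 5 (22.8%). Without library weights and without the 4 low-coding Het libraries, the counts were 1 in WT (Tomm40), 1 in E3 (Nectin2), 2 in E4 (Apoe and Nectin2) and 0 in both Het and KO (limma; 3 and 1 at an unadjusted p under 0.05), where 6.57%, 5.32%, 12.5%, 0.129% and 2.16% of all genes were called. Responses that differed from that of WT numbered 1 in E3 (9.04% of all genes), 3 in E4 (8.73%) and 1 in KO (9.96%), and 1 differed between E4 and E3 (0.23%). In Het after myelin, replicate 3 carried a library weight of 4.26 and the others 0.101 to 0.28, so the fitted Het myelin values rest largely on that library. In E3 after myelin, replicate 4 carried 4.52 and the others 0.683 to 0.931, so the fitted E3 myelin values also rest largely on 1 library.

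**Figure D4:**
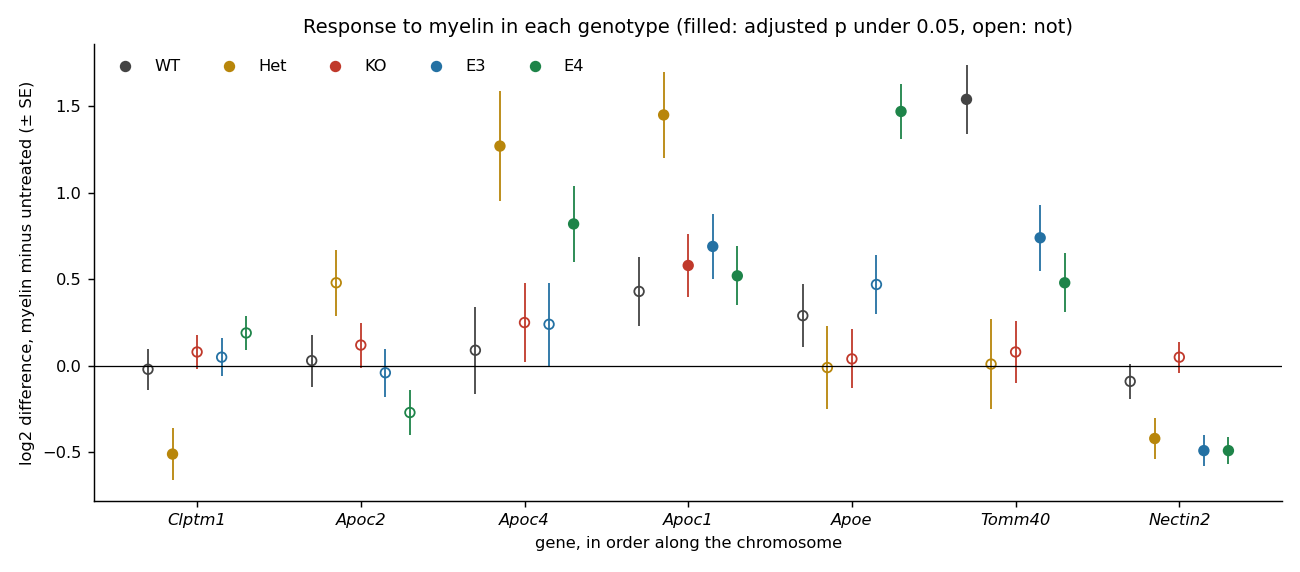
Log2 difference (± SE) between myelin-treated and untreated libraries of each genotype for the 7 tested genes, with filled points past the adjusted p threshold of 0.05. Apoe in E4 and Tomm40 in WT have the largest responses outside Het, and Nectin2 is below 0 and filled in E3, E4 and Het.

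Genes farther along the chromosome were read against the same shares of all genes. Within 1 Mb of the Apoe start, 27 genes other than the cluster were tested. Between untreated KO and Het, 1 of them was higher and 2 were lower, where 12% and 4.34% of all genes were. These were Fbxo46 at 0.59 ± 0.15 (limma, adjusted p = 0.00592), Pvr at -0.64 ± 0.10 (1.23e-05) and Rtn2 at -0.46 ± 0.16 (0.0473), which held under 1 of the 6 alternatives (0.0333 to 0.219). The Apoe, Apoc2 and Apoc1 differences in the same comparison were -9.36, -2.32 and -1.61. Between untreated KO and WT, 9 of the 27 were higher and 10 lower, near the 29.2% and 32.7% of all genes, from Pvr, an immune receptor ligand related to Nectin2, at -1.60 ± 0.07 (2.48e-22) to Irf2bp1, a transcriptional repressor partner, at 2.42 ± 0.18 (6.62e-16). In the untreated E3 and E4 comparisons with WT, 13 and 14 of the 27 were higher, where 28.2% and 30.3% of all genes were. In the same order, 7 and 4 of the 27 were lower, where 33.6% and 36.4% of all genes were. The median log2 differences of the 27 were 0.35 and 0.31, against -0.03 and -0.04 over all genes. Pvr again was lower, by -1.08 ± 0.08 and -1.26 ± 0.07. In WT, where myelin gave calls for 9.75% of all genes, it raised 5 of the 27, among them Clasrp by 1.17 ± 0.16 (1.57e-06), Relb, an NF-kB subunit, by 0.95 ± 0.15 (9.97e-06) and Ppp1r37 by 0.84 ± 0.14 (3.46e-05). As with Tomm40, the Clasrp and Relb responses of KO were smaller than those of WT, by -1.26 ± 0.22 (0.000155; 0.000217 to 0.162) and -1.03 ± 0.20 (0.000641; 0.000687 to 0.285), and both were lost without library weights.

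**Figure D5:**
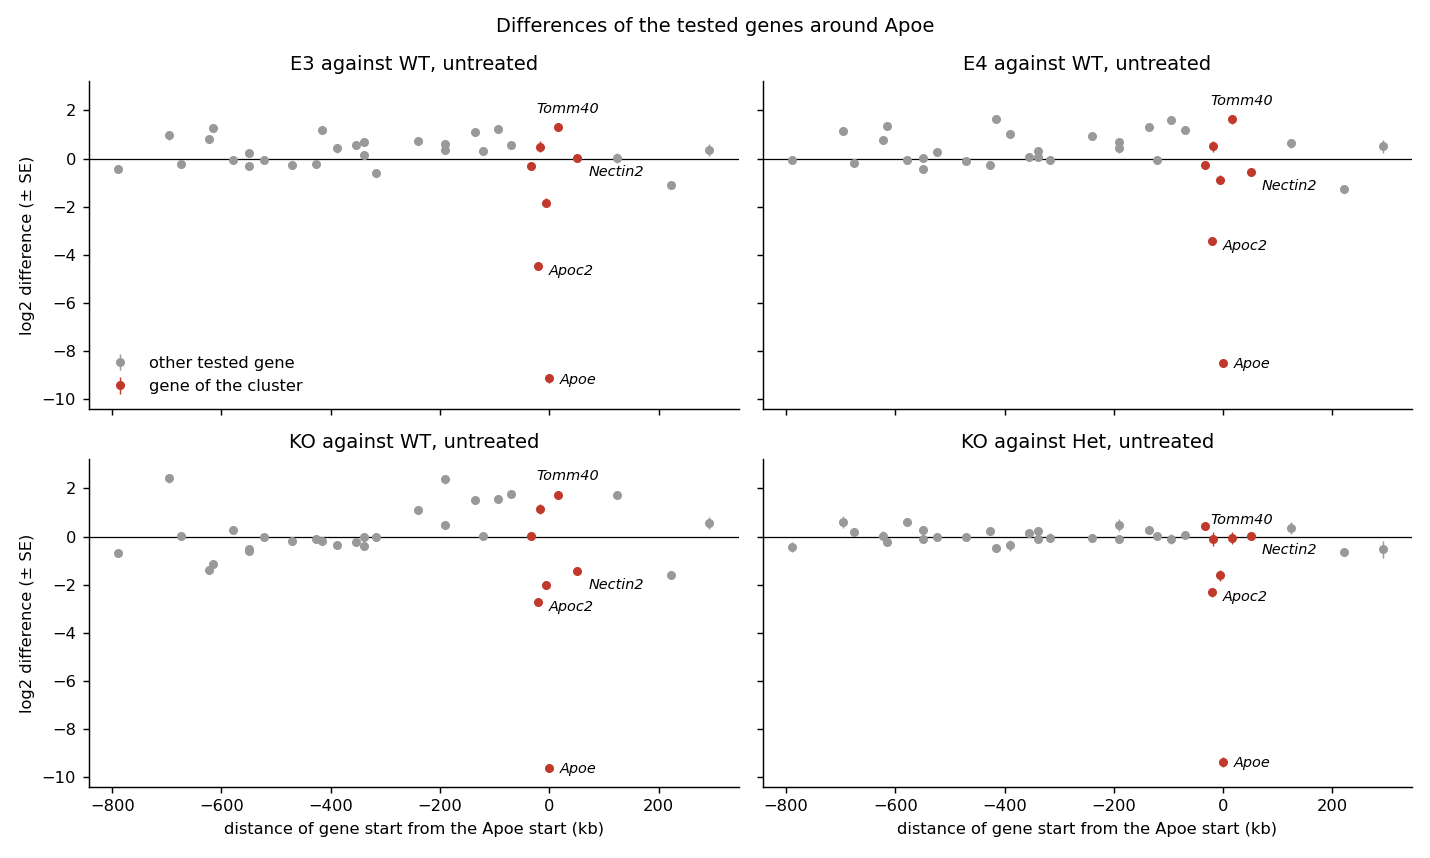
Log2 difference (± SE) of each tested gene near Apoe against the distance of its start from the Apoe start in kb, for 4 untreated comparisons, with the cluster genes in red and others in grey. Apoe and Apoc2 stand below all other genes in each panel, and between KO and Het Apoc1 follows at -1.61 while the grey genes lie from -0.64 to 0.60.

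Genes of the pathway in which apolipoprotein E works also differed. Of 16 tested LXR pathway genes and targets, 9 were higher and none was lower in untreated E4 than in E3, where 13.6% of all genes were higher and 12.8% lower, with a median log2 difference of 0.32 against 0.02 over all genes. Without library weights 1 of the 16 was called, and without weights and the low-coding Het libraries 6 were. The 9 included Abca1, the cholesterol exporter that loads apolipoprotein E with lipid, at 0.66 ± 0.11 (limma, adjusted p = 1.99e-05; 2.72e-05 to 0.21 over the alternatives), and Nr1h3, which encodes LXR alpha, at 0.63 ± 0.09 (9.97e-07; at most 0.0106). Astrocyte markers were also higher in E4, 8 of the 9 by the same test, and their part in these list counts was not tested. Of 12 lipid export and lipidation genes, 6 were higher and 1 lower, including the phospholipid transfer protein Pltp at 0.58 ± 0.10 (2.71e-05; 9.11e-06 to 0.464). Of 10 receptors and receptor regulators, 2 were lower, among them Scarb1, a receptor for high-density lipoprotein, at -0.28 ± 0.08 (0.00979; 0.00874 to 0.643). The Abca1, Pltp and Scarb1 calls were each lost only without library weights. Between untreated KO and Het, 4 of the 16 LXR genes were higher and 1 lower, where 12% and 4.34% of all genes were. Among them were Pltp at 0.98 ± 0.13 (limma, adjusted p = 6.32e-07) and Lpl, the lipase that Apoc2 activates, at 0.79 ± 0.15 (0.000301). Without library weights 9 of the 16 were higher and 2 lower. The shares of all genes in this paragraph are from the weighted fit. They are not a measure for the counts without library weights. In E4, where myelin gave calls for 22.8% of all genes, it raised 6 of 16 LXR genes (2 of 16 without library weights), led by the exporter Abcg1 at 2.36 ± 0.15 (1.35e-15). In E3 it raised 5 and lowered 1 (1 raised without library weights; 17.5% of all genes called), and in Het it raised 1 and lowered 4 (none called without library weights; 18.6%). In WT and in KO it raised 1 (9.75% and 5.41%). Whether these responses differ between genotypes was not tested for the list. With the coding total alone, the split over all genes in E4 went from 1530 higher and 954 lower to 1189 and 1496. Of 6 other apolipoprotein genes tested, Clu, which encodes clusterin, was higher in E4 than in E3 by 0.84 ± 0.16 (9.83e-05), a gene that astrocytes express strongly.

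The genes whose levels ran most like each cluster gene are given as descriptions. Over the 19 WT and Het libraries, which include the 4 of low coding content, the tested genes most like Apoe were Tor1a, Sil1, Sco2 and Fblim1, with Pearson r of 0.957 to 0.965 on the log2 scale. Over the same libraries r was 0.655 between Apoe and Apoc2 and 0.359 between Apoe and Apoc1. Over the 10 group means, Apoc2 ran with Clec4e, A630089N07Rik and Cd38 (r of 0.951 to 0.966), Tomm40 with Gtf3a, Lonp1 and Csnk1a1 (0.979 to 0.984) and Nectin2 with Acot7, Ahcy and Uaca (0.984 to 0.986). Apoc1 was less closely matched, with Bcl2a1a, Ptma and Tcim at 0.857 to 0.881, while Apoc4 ran with Vat1, Rap2a and Amdhd2 (0.967 to 0.977) and Clptm1 with Taf6, Dpp3 and Tfip11 (0.99 to 0.993).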

How the data were processed

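PolyA RNA of cultured mouse microglia was sequenced from low-input libraries, per the labels' protocols. The authors deposited TPM per gene and library, with mouse gene identifiers and no counts. Salmon 0.13.1, limma 3.40.6 and mm10 are named in the submitters' processing notes without a role. Each library was rescaled to 1000000 over nuclear protein-coding genes and then by a trimmed-mean factor (trims of 30% and 5%). Genes reaching 5 scaled TPM in at least 4 libraries, 10887 in all, were tested on log2(scaled TPM + 1), a scale that understates changes of low genes. limma 3.58.1 in R 4.3.3 was fitted to all 47 libraries with 10 group means, library weights (whose iteration stopped before its tolerance) and a mean-variance trend. P-values were two-sided and adjusted by Benjamini-Hochberg over all genes at 0.05. Single values were checked by exact permutation tests, whose smallest p was 0.00794 for 5 against 5. Alternatives were no weights, no weights without 4 low-coding Het libraries, the coding total alone, a pseudocount of 5, no filter, a replicate block and leaving out each library. Simulated data had independent normal noise and 200 changed genes of 10887. Every other gene had the same mean in all groups, and the spreads of genes and libraries were taken from these data. Real libraries need not behave so, and the simulated figures do not measure the reliability of the calls reported here. For E4 against E3, 97% of 2-fold and 71% of 1.5-fold changes were recovered, with 14 false calls. For the difference between the E4 and WT responses, 89% and 52% were recovered, with 9 false calls. Depth cannot be read from TPM. Coordinates are from GENCODE M21, which held 97.1% of the 27326 coding and long non-coding identifiers, and promoters from RefSeq (GRCm38.p6). Named genes were all 8 cluster genes, and up to 3 called genes in each direction, by size, from lists of receptors, lipid export, LXR and apolipoprotein genes and from genes within 1 Mb, of which those the text turns on are printed. For likeness, the rule took 5 genes for Apoe and 3 for each other tested gene; a result the rules would name is not reported here. The cluster and the lists were chosen with earlier results of these data known. The comparisons of E3 and E4 with KO, and the alternatives for the lists, were added after seeing the data.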

Additional observations from a re-analysis of the deposited data

Results flagged for a closer look

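In 6 of 80 sets of libraries, each a gene in a group, 1 library stood far from the rest of its group, and chance gives about 1 in 20. Het untreated replicate 5, with 0.468% coding RNA, gave 3 of these: Apoe at 7922 scaled TPM, Tomm40 at 28.7 and Bcam at 3.88. The others were Apoc4 at 2.68 in E4 myelin replicate 4, Apoc2 at 6.33 in E3 untreated replicate 4 and Bcam at 0.669 in KO myelin replicate 3.

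The response to myelin differed between genotypes in 6 tests of the difference itself (limma, adjusted over 10887 genes). Of 7 tested genes, 1 was called for E3 against WT (9.04% of all genes) and 3 for E4 against WT (8.73%). For KO against WT 1 was called (9.96%), and for E4 against E3 1 (0.23%). Without library weights none of the 6 was called. For Apoe the response was larger in E4 than in WT by 1.18 on the log2 scale and larger in E4 than in E3 by 1.0. For Tomm40 it was smaller than in WT by -1.45 in KO and -1.06 in E4. For Nectin2 it was lower than in WT by -0.4 in both E3 and E4. These Nectin2 calls were lost on leaving out any of 11 and 10 libraries, and the Apoe call between E4 and E3 any of 10.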

How the results depend on the processing

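Over 175 pairs of gene and comparison, 136 to 171 kept their side of the threshold under each of the 6 alternative settings. No pair changed sign with a call in either fit, under these settings or on leaving out a library. Differences called in neither fit could change sign. Tomm40 in Het against WT after myelin went from 0.26 to -0.56 without Het myelin replicate 3. The counts of cluster genes called that moved by over 1.5 times are given here; the cause was not tested. Where limma called 0, the alternatives had 0 to 4 genes at an unadjusted p under 0.05. Without library weights the count was 1 for E4 against E3 in each arm, 2 and 3 for E3 against KO untreated and after myelin, 1 for the response in E4 and in Het, and 0 for the responses in E3 and KO and for all 4 differences between responses. Without weights and without the low-coding Het libraries it was 3 for Het against WT after myelin, 1 for the response in E3, 2 in E4 and 0 in Het and KO, and 1 for E4 less WT but 0 for E3 less WT and E4 less E3. With no filter it was 3 for Het against WT after myelin, 3 for E3 against KO untreated, 1 for the response in E3, 3 in E4 and 0 in Het and KO, with 0 for E3 less WT and E4 less E3. With the coding total alone E3 less WT and E4 less E3 were also 0, and with a pseudocount of 5 the KO response was 0. The replicate numbers gave no clear pairing of the samples. Between the 2 arms of a genotype, same-number correlations of deviations ran from -0.55 to 0.46. Over all pairs of groups, also across genotypes, the same-number median was 0.02 (201 pairs). Whether some libraries were paired cannot be told from these values. With a replicate block the counts were 0 for the Het and KO responses, 0 for E3 less WT and E4 less E3, and 1 for E4 less WT.

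Leaving out 1 library at a time, the untreated counts ranged from 4 to 6 for E3 against WT, 5 to 7 for E4, 1 to 6 for Het and 6 to 6 for KO, and after myelin from 4 to 6, 5 to 6, 4 to 5 and 5 to 5. E4 against E3 gave 4 to 5 in both arms, KO against Het 2 to 4 untreated and 5 to 6 after myelin, E3 against KO 4 to 6 in both arms, and E4 against KO 6 to 6 and 4 to 4. The responses gave 1 to 3 in WT, 1 to 4 in E3, 3 to 5 in E4, 0 to 5 in Het and 0 to 1 in KO, and their differences 0 to 2 (E3 less WT), 2 to 3 (E4 less WT), 1 to 1 (KO less WT) and 0 to 1 (E4 less E3). The coding total alone moved the median of all genes by at most 0.09 on the log2 scale. TPM hides depth, so the precision of low genes such as Apoc4 and Bcam is unknown.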
